A study of Mus musculus with 8 samples.

Results

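Retnla encodes resistin-like molecule alpha, a small secreted protein also known as Fizz1, and it lies between 2 relatives, Retnlb and Retnlg, on mouse chromosome 16. These 3 loci, of 31020 in the deposited annotation (mm9 build), were chosen by position, as the ones with a reference-matching transcript in a fixed window around Retnla. They were followed in macrophages that had been grown in culture from the bone marrow of C57BL/6 mice. One group of 4 libraries came from untreated cells and the other 4 from cells that received IL-4 (interleukin-4), a signal protein of T helper 2 cells and allergy, and no genetic change is named in the labels. The sources used here give no dose or duration of IL-4, number of animals or sex. The design text calls the samples of a group biological replicates but does not say that each is a separate animal, so p-values here rest on the variation among these libraries, which may be partly technical. The comparison asks which of the resistin-like genes macrophages express and how IL-4 changes that.

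Resistin-like molecules are cysteine-rich proteins released from cells. IL-4 binds a receptor that activates the transcription factor STAT6, and Retnla is among the best-known STAT6-dependent genes of mouse macrophages, where it is widely used as a marker of the alternatively activated state. The relatives have other main sources: Retnlb is known from goblet cells of the intestine, where it acts on bacteria, and Retnlg from bone marrow and neutrophils.

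All 3 loci are on the plus strand and have a coding-sequence identifier in the deposited annotation. Retnla (XLOC_010303, chr16:48842665-48844574, mm9) has 4 exons of 77, 152, 81 and 288 nucleotides (nt) in a single transcript of 598 nt. Retnlb (XLOC_010302, chr16:48816969-48819005) ends 23659 nt before it and has 4 exons of 216, 152, 63 and 265 nt. Retnlg (XLOC_010304, chr16:48872721-48874611) begins 28146 nt after it and has 2 isoforms with separate start sites. The longer has exons of 93, 152, 81 and 282 nt, and the shorter, of 532 nt, begins within what is the first intron of the longer. The second exon thus has 152 nt in all 3 loci, and the next has 81 nt in Retnla and Retnlg. No exonic nt of the 3 loci overlaps an exon of another locus, so their counts are not divided with a neighbour through shared exons.

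**Figure D1:**
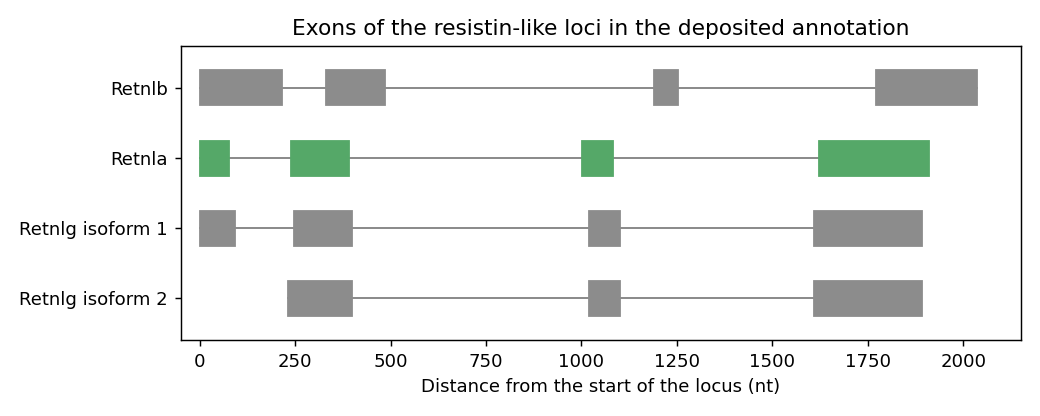
Exons (boxes) and introns (lines) of the 4 annotated transcripts of the resistin-like loci, with distance in nt from the start of each locus on the x axis. The 152-nt second exon of Retnla has a counterpart of the same length in Retnlb and in the longer Retnlg isoform.

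The sequences before the RefSeq start sites of Retnla and Retnlg are shown to set an IL-4-induced gene beside a close relative with almost no reads. They come from RefSeq on build GRCm38.p6, a later build than the mm9 of the deposited files, and no position was carried from one build to the other. Positions count from the RefSeq start base as 0. The span of Retnla is 1910 nt in the deposited annotation and 1853 nt in RefSeq, so the annotated ends differ. The stretch of Retnla was ended at its TATA box. The deposited first exon may begin before the RefSeq start and take in that TATA box. Capitals mark matches on either strand to 4 motifs. The STAT6-type motif is TTC and GAA with 4 bases of any kind between them, the spacing STAT6 prefers, and TTCNNNGAA has the spacing of other STAT proteins. TTGCNNAA is of the type bound by C/EBP factors, and TATAAA is the TATA box. The plus-strand stretch at chr16:48842359-48842584 before Retnla and the one at chr16:48872358-48872607 before Retnlg read as follows.
Retnla: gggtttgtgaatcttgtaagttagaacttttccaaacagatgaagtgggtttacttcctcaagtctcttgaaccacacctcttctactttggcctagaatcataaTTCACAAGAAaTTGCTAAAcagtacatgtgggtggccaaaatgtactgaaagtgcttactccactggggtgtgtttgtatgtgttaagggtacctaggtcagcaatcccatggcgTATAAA
Retnlg: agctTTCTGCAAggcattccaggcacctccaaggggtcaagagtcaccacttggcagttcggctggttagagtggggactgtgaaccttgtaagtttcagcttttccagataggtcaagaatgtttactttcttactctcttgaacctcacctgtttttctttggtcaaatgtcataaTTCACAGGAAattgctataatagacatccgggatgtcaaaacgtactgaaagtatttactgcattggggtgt

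In Retnla the STAT6-type match TTCACAAGAA lies at -145 to -136, a C/EBP-type match follows at -134 to -127 after 1 base, and a TATA box lies at -30 to -25. No TTCNNNGAA is in either window, and none of the motif matches of a gene overlap each other. In Retnlg a STAT6-type match, TTCACAGGAA, lies at -72 to -63, and a C/EBP-type match lies far from it at -246 to -239, on the minus strand. When the 2 full promoter windows of 300 bases, which run past the start base and in which the motifs were searched, were aligned, 175 of 223 aligned columns (78.5%) were identical, and 3 were gaps. The alignment set both STAT6-type matches against each other with the difference A7G, counted from 1 at the 5′ end of the motif with the base of Retnla first. In place of the C/EBP-type match next to it, Retnlg has a run with 1 inserted base that breaks the motif. The Retnlg bases set against the TATA box of Retnla have the difference A4T. They lie at 43 to 48, after the RefSeq start base of Retnlg and beyond the printed stretch. Of 32851 RefSeq promoter windows of 300 bases, 6.95% hold the STAT6-type motif, 8.3% TTCNNNGAA, 10.8% TTGCNNAA and 13.6% TATAAA, and 0.84% hold both the STAT6-type and the C/EBP-type motif. Such matches describe letters and do not show binding.

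Before the values, the libraries themselves are described. Total counts ran from 23071022 to 27783417 per library. The untreated and the IL-4 library numbered 4 stand apart from the other 6, since they had 5808 and 5525 counts at loci of chromosome Y where the others had 0 to 7. The levels, ranks and calls of Retnla, and the other main results below, are therefore also given without both, an alternative chosen after seeing the data. Macrophage markers and markers of other cell types were not checked, because the files identify loci only by assembly and UCSC-style identifiers. Of 72 symbols in the marker, pathway and resistin-like family lists, these identifiers paired 0 with a symbol. Retnla, Retnlb and Retnlg were instead named by a given locus number or by span.

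Retnla went from no reads in untreated macrophages to an abundant RNA with IL-4. Its count was 0 in each of the 4 untreated libraries. With IL-4 the counts were 14924, 15663, 14167 and 10653 in replicates 1 to 4. As CPM, which scale a count to the total of its library, these are 578, 564, 591 and 394. Replicates 1 to 3 lay close together, replicate 4 was lower, and the groups did not overlap.

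The group means were 0 and 532 ± 92.5 CPM (SD, n = 4). A count of 0 in the untreated group still allows up to 3 counts in 98512800, or 0.0305 CPM, and against that floor the IL-4 group was at least 17387-fold higher. With 1 IL-4 library at a time the ratio to the floor ran from 12932 to 19409, the lowest being that of replicate 4. The rise passed the test across all loci (edgeR's quasi-likelihood test, Benjamini-Hochberg adjusted p = 1.026e-08), where 25.6% of 13761 tested loci were called higher and 26.2% lower, 51.8% in all. Of the 3 genes Retnla alone passed the filter on low counts, and it could pass only through the IL-4 group. The CPM of the groups also differed in the two-sided exact permutation test, which ignores the library numbers (p = 0.02857, the smallest that 4 against 4 allows). Retnla was higher with IL-4 in 4 of 4 pairs of libraries with the same number. An exact permutation test within 4 pairs could not go below p = 0.125. Without both libraries numbered 4 the ratio to the floor was 14333 and the IL-4 mean 577 ± 13.6 CPM (n = 3), still with adjusted p = 2.681e-08 (edgeR). Over all alternatives the adjusted p ran from 2.965e-54 (DESeq2) to 2.088e-07 (edgeR). The exact permutation test of 3 against 3 cannot go below its p of 0.1. In bulk RNA, more cells that express Retnla and more Retnla RNA per cell cannot be told apart.

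**Figure D2:**
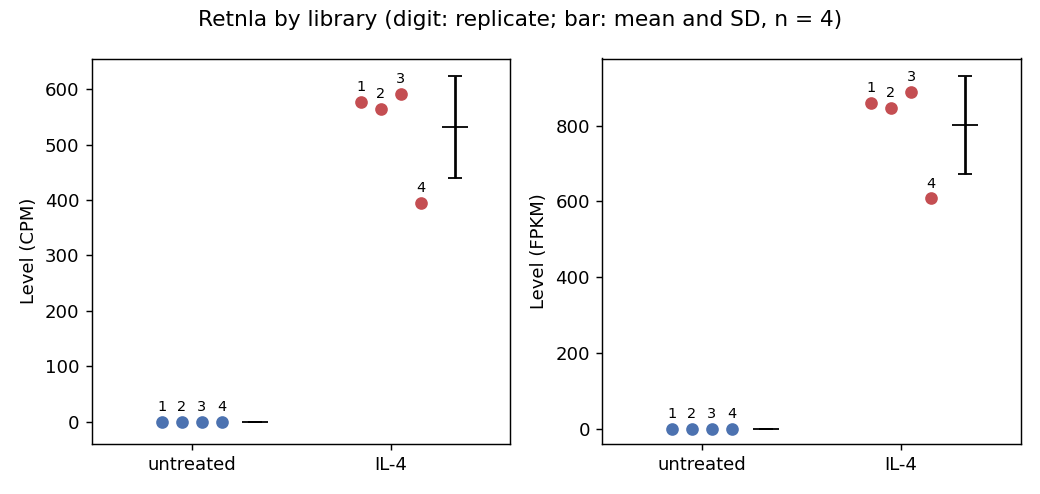
Retnla in each library, as CPM (left) and as FPKM of its only transcript (right). Points are libraries with the replicate number above them, bars give mean and SD (n = 4), and the 4 untreated libraries sit at 0 on both scales while IL-4 replicate 4 lies under the other 3.

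The authors' FPKM, which scales fragments to transcript length and to the mapped fragments of a library, gave the same order of libraries. The only Retnla transcript had 0 FPKM in each untreated library and 861, 847, 889 and 608 FPKM in IL-4 replicates 1 to 4. The mean was 801 ± 129.9 FPKM (SD, n = 4), and 866 ± 21.1 (n = 3) without replicate 4. On the log2(FPKM + 0.1) scale the difference was 12.95 (SE 0.12, limma, adjusted p = 1.048e-10), where 19.8% of 17500 tested isoforms were called higher. That size is set by the pseudocount, since it was 16.27 with 0.01 and 9.63 with 1.

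Once induced, Retnla stood among the upper loci but was not at the top. By mean IL-4 CPM it ranked 223 of 20269 loci with counts, and 209 of 14680 protein-coding loci. Its transcript is short, and per exonic kilobase it ranked 19 among the protein-coding loci. The exonic length joins the exons of all transcripts of a locus, so this scale can lower loci with many isoforms. By mean FPKM its transcript ranked 94 of 73608 isoforms listed above 0. In single IL-4 libraries the rank among protein-coding loci by CPM was 180, 191 and 187 in replicates 1 to 3 and 302 in replicate 4. Without both libraries numbered 4 its mean ranked 199 of 19997 loci and 187 of 14491 protein-coding loci by CPM, 16 of the latter per exonic kilobase, and 85 of 73092 isoforms by FPKM. It took 0.0532% ± 0.00925 (SD, n = 4) of the counts of an IL-4 library.

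The 3 loci just above and the 3 just below it in mean IL-4 CPM, from 523 to 544 CPM, were all well expressed without IL-4. The highest of them, XLOC_017259 on chromosome 3 (87329500 to 87347355), had the lowest untreated level of the 6, 196 ± 9.54 CPM, and rose 2.98-fold to 544 ± 31.5 CPM (edgeR, adjusted p = 1.757e-08, with 4.516e-07 without both libraries numbered 4). The other 5 had untreated means of 455 to 653 CPM. Retnla thus reached, from 0, a level near that at which these 5 already stood without the cytokine.

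Many loci had counts with IL-4 only, and almost all of them had very few. In all, 1478 loci had 0 counts in the 4 untreated libraries and some with IL-4, with a median of 1 count in the IL-4 group. Counts in all 4 IL-4 libraries were found at 151 of them, 10 or more counts in the group at 125, and 100 or more at 22. Retnla held 55407 of the 77253 IL-4 counts of all 1478 loci, or 71.7%. The next of them, a protein-coding locus on chromosome 3 (55046448 to 55343086), had 7107, so Retnla had 7.80 times as many. Without both libraries numbered 4 the number of such loci was again 1478, of which 1335 were the same loci, with 132 at 10 or more and 21 at 100 or more counts, and Retnla held 70.4% of their IL-4 counts and 8.85 times the next. Of the 1478 loci 26 passed the filter on low counts, and having 0 in one group they could pass it only through the other, so their calls carry no weight as a count.

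The relatives next to Retnla stayed at the edge of detection in both groups. Retnlb had 0 counts in the untreated libraries and 3 with IL-4, all in replicate 2, which was 0.108 CPM and 0.132 FPKM there. Retnlg had 1 count each in untreated replicates 2 and 3 and 1 in IL-4 replicate 1, between 0.0375 and 0.0433 CPM. The exact Poisson 95% interval of the group count ran from 0.619 to 8.77 for Retnlb with IL-4, from 0.242 to 7.22 for untreated Retnlg and from 0.0253 to 5.57 for Retnlg with IL-4, covering counting error only. Neither locus passed the filter on low counts, both were at or under 3 counts in each group, and no fold is given. At this depth no response of Retnlb or Retnlg to IL-4 was detectable.

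FPKM placed the few Retnlg reads on the shorter isoform, with 0.0656 and 0.0754 FPKM in untreated replicates 2 and 3 and 0.0704 in IL-4 replicate 1. The longer isoform had at most 1.53e-05 FPKM in any library. With a single read per library this assignment carries little weight.

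Per exonic nt, the 55407 IL-4 counts of Retnla were 19303 times the floor of 3 counts at Retnlg and 21496 times the 3 counts of Retnlb. The Poisson intervals of both relatives with IL-4 reach beyond 3 counts, to 5.57 for Retnlg and 8.77 for Retnlb. These ratios are therefore not lower limits. They compare genes within the IL-4 group and are not responses to IL-4. Of the 3 neighbouring genes, only Retnla was thus measured above the edge of detection in these cells.

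Beyond the 3 genes, no locus near Retnla was called higher with IL-4. Of the 7 other loci that reach within 500 kb, 3 had enough counts to be tested, 0 rose and 1 fell, against 25.6% and 26.2% of all tested loci. Upstream of Retnlb, the protein-coding loci XLOC_010658 and XLOC_010301 had 0 counts in all 8 libraries. XLOC_010659, whose end is 70595 nt before Retnla, had 2 counts with IL-4 and 0 without. The non-coding locus XLOC_010661, 366179 nt downstream, had 0 in all libraries.

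The 3 tested neighbours all lie downstream and start 79608 to 205137 nt after Retnla. XLOC_010660 (48924183 to 48994692, minus strand) had 14.2, 25.8, 27.9 and 24.8 CPM in the untreated libraries and 14.5, 14.6, 14.5 and 14.7 with IL-4. It fell from 23.2 ± 6.11 to 14.6 ± 0.0962 CPM (n = 4 each), which is -0.56 on the log2 scale (edgeR, adjusted p = 0.01387). The approximate SE, 0.16, was worked back from this log2 change and the F statistic of the test. The groups overlapped, as untreated replicate 1 was as low as the IL-4 libraries. The call was lost without both libraries numbered 4 (adjusted p = 0.0622) and when tested against a change of 1.5-fold (0.949), in a range of 6.319e-06 to 0.949 over all alternatives.

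XLOC_010305 (48988044 to 49021043) had 31.3 ± 2.64 and 25.6 ± 2.57 CPM and did not pass (edgeR, adjusted p = 0.09526, with 0.04769 when untreated replicate 4 was left out, 0.07507 without both libraries numbered 4 and up to 1 over the alternatives). It shares 590 exonic nt with XLOC_010660 on the other strand, and since the handling of strand is not stated, reads there cannot be assigned. XLOC_010306 (49049712 to 49199673) had 4.17 ± 3.18 and 2.57 ± 0.369 CPM and did not pass either (edgeR, adjusted p = 0.311, with 0.185 without both libraries numbered 4).

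**Figure D3:**
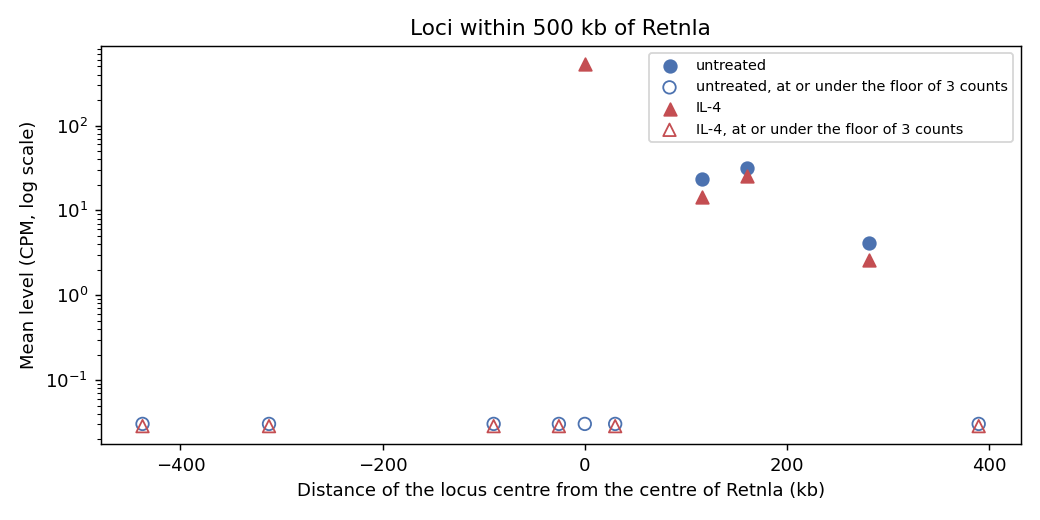
Mean CPM (log scale) of the 10 loci within 500 kb of Retnla against the distance of their centres from that of Retnla in kb, for untreated (circles) and IL-4 (triangles) libraries; open symbols are placed at the floor of 3 counts in the group. Retnla with IL-4 stands alone above 500 CPM, and the 3 other expressed loci, all downstream, have lower means with IL-4.

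The 4 IL-4 libraries did not express Retnla equally. The coefficient of variation of Retnla over them was 17.4%. The 100 tested loci nearest to it in mean IL-4 CPM, from 451 to 631 CPM, had a median of 6.44%, and 7 of them exceeded Retnla. The highest library had 1.5 times the CPM of the lowest, while the total counts of the IL-4 libraries differed by at most 1.16-fold. Replicate 4 had 0.682 times the mean of the other 3, and without it the SD fell to 13.6 CPM.

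This shortfall was shared by other loci that rose strongly. Among 267 other loci that were called 10-fold or more higher, the ratio of replicate 4 to the mean of replicates 1 to 3 had a median of 0.681, replicate 4 was the lowest of the 4 at 200 (74.9%), and 135 had a ratio at or under that of Retnla. Among the 21 other loci with 0 untreated and 100 or more IL-4 counts the median was 0.654, with replicate 4 lowest at 15. Over all 13761 tested loci the median ratio was 0.970, replicate 4 was lowest at 33.9%, and 1018 were at or under Retnla. Replicate 4 is also the IL-4 library with counts on chromosome Y. With 1 such library in the group, the source of its cells and its response to IL-4 cannot be told apart.

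**Figure D4:**
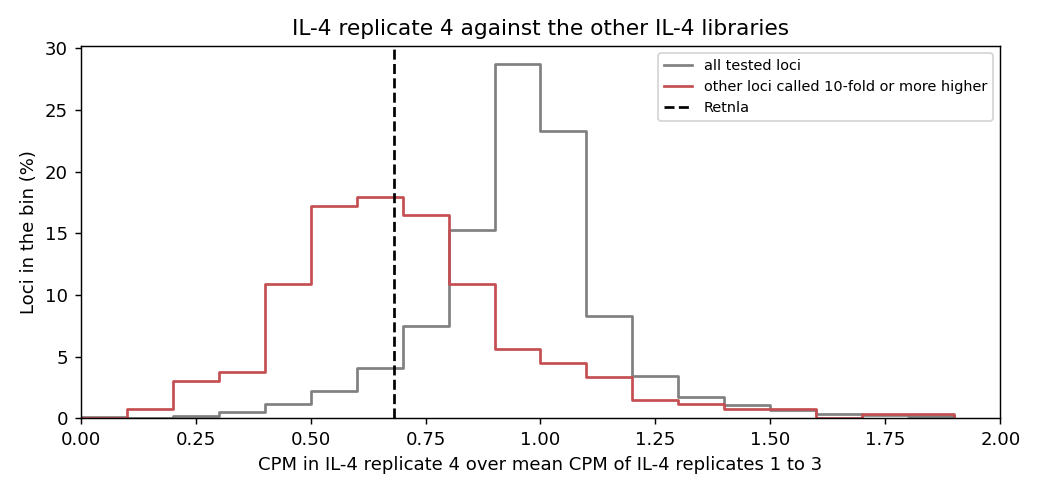
Share of loci (%) by the ratio of CPM in IL-4 replicate 4 to the mean of IL-4 replicates 1 to 3, in bins of 0.1, for all 13761 tested loci (grey) and the 267 other loci called 10-fold or more higher (red); ratios above 2 are not drawn. Retnla (dashed, 0.682) falls in the middle of the red distribution, whose median is 0.681, and left of most tested loci.

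The loci most like Retnla over the 8 libraries were found by how the summed CPM of each is divided among the libraries. The distance is the share that would have to be moved to make the 2 patterns equal, from 0 to 1. Among 9970 tested protein-coding loci with at least 1 CPM on average with IL-4, the median distance was 0.518, and 103 lay under 0.1. The nearest was XLOC_007874 on chromosome 14 (51823365 to 51884264), at 0.0161, with 0 untreated counts and 3.60 ± 0.649 CPM with IL-4 (n = 4), at least 118-fold higher. It shares 4200 of its 7721 exonic nt with other loci, so its reads are uncertain.

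The next 4 were at distances of 0.0203 to 0.0268. XLOC_022562 on chromosome 6 (121160608 to 121177769) went from 0.0595 ± 0.0353 to 49.7 ± 6.63 CPM. XLOC_030132 on the X chromosome (130442965 to 130466989) went from 0 counts to 10.4 ± 1.69 CPM, at least 341-fold higher. XLOC_004077 on chromosome 11 (116392899 to 116398035) went from 0.518 ± 0.274 to 26.0 ± 5.64 CPM, and 946 of its 3263 exonic nt are shared with other loci.

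XLOC_008087 on chromosome 14 (70930492 to 70938131) had 1 untreated count, in replicate 4, and 6.97 ± 1.03 CPM with IL-4. All 5 were lowest in replicate 4 among the IL-4 libraries, as the measure of likeness favours. They reached 3.60 to 49.7 CPM, all far under the 532 CPM of Retnla, so they share its pattern and not its level. Over the 6 libraries numbered 1 to 3 the same 5 lay at 0.0122 to 0.0233 and in places 1, 4, 8, 9 and 10 by distance, so which loci rank nearest depends on those libraries.

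**Figure D5:**
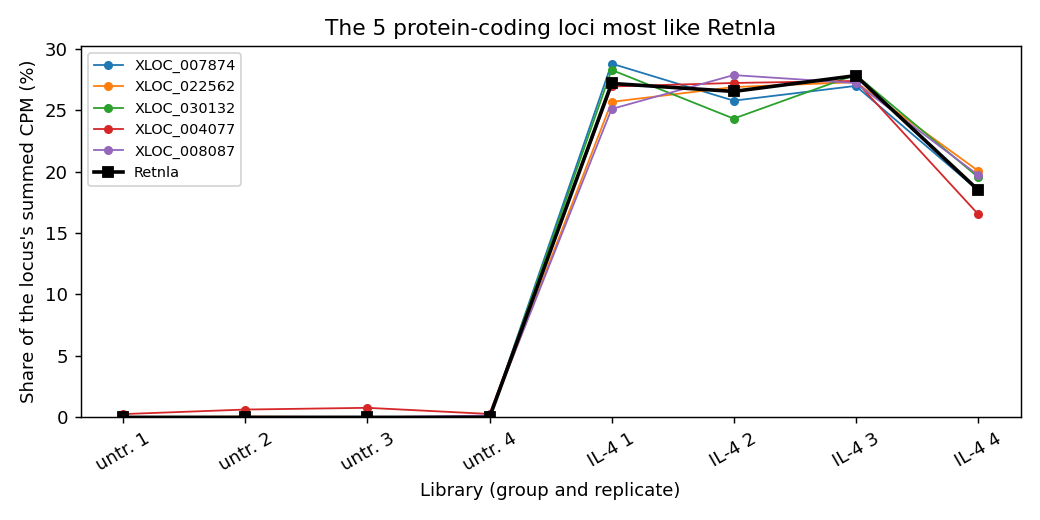
Share (%) of the summed CPM of a locus that falls in each of the 8 libraries, for Retnla (black squares) and the 5 protein-coding loci with the smallest distance to it; lines only join the points of a locus. All 6 have nearly nothing in the untreated libraries and their lowest IL-4 share in replicate 4.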

How the data were processed

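RNA from 8 samples, 4 untreated and 4 IL-4, was sequenced after depletion of ribosomal RNA, per the labels' protocols. TopHat2 2.0.9, HTSeq, Cufflinks 2.1.1, CASAVA 1.8.2 and the mm9 build stand in the submitters' processing notes, while settings, including strand, are not given in the sources used here. Read counts for 31020 loci, FPKM for 89208 isoforms and a merged annotation are the files the authors deposited, and 0 value columns were left without a library. The members and lists were chosen with earlier results of these data known. Retnla was taken by its locus identifier, and Retnlb and Retnlg by a span identical to that in RefSeq.

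The test on counts was that of edgeR 4.0.16, run in R 4.3.3 (TMM factors, default filter, quasi-likelihood test, two-sided, Benjamini-Hochberg, threshold 0.05), and log2(FPKM + 0.1) with limma 3.58.1 for isoforms at 1 FPKM or more in at least 4 libraries, or 3 where a library was left out of a group. DESeq2 1.42.0 was an alternative. Both procedures were tested on simulated data. On counts, all simulated loci were expressed in the untreated group, so a locus at 0 there, such as Retnla, was not covered. Same-numbered libraries deviated together (correlations 0.39, 0.149, 0.228 and 0.179 over tested loci), but not always most closely. Untreated replicate 3 correlated more with another IL-4 library, and IL-4 replicate 2 with another untreated library. The labels state no pairing. The main fits and the permutation test did not use the numbers as pairs, while the replicate block, an alternative, did. Named loci were the members, the tested loci within 500 kb, the 5 most like Retnla and the 3 above and 3 below it in level; untested neighbours, the 100 loci nearest in level, the loci with 0 untreated counts and the ratios of replicate 4 were added after values were seen. Promoters were aligned with Biopython 1.88.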

Additional observations from a re-analysis of the deposited data

Results flagged for a closer look

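Groups of 4 libraries were searched for a library far from the other 3. Of 31 groups with differing values, 8 had such a library. Chance alone gives about 5% for independent groups of continuous values, which these groups are not. A group with reads in a single library is always flagged, and Retnla enters on both scales. XLOC_004077 was chosen for its likeness to Retnla over the libraries. The 8 therefore cannot be compared with 5%, and no excess over chance is drawn from them. In Retnla, IL-4 replicate 4 was the lowest on both scales, at 394 CPM against 564 to 591 and at 608 FPKM against 847 to 889. XLOC_004077, among the loci most like Retnla, had 17.6 CPM in IL-4 replicate 4 against 28.6 to 29.1.

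Another 4 rest on 1 to 3 reads: Retnlb in IL-4 replicate 2 (0.108 CPM, the others at 0), Retnlg in IL-4 replicate 1 (0.0387 CPM, the others at 0), XLOC_008087 in untreated replicate 4 (0.0417 CPM, the others at 0) and XLOC_022562 in untreated replicate 2 (0.112 CPM against 0.0403 to 0.0433). The last, XLOC_027072 on chromosome 8 (123192190 to 123198109), which is next below Retnla in IL-4 level, had 522 CPM in untreated replicate 1 against 426 to 441.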

How the results depend on the processing

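The rise of Retnla kept its direction and its call under all 16 alternatives on counts and, in limma, under all 15 on FPKM (9.63 to 16.27). The untreated values were all 0, so these alternatives could hardly change the call and add little weight. On counts the fitted log2 fold change ran from 16.24 (DESeq2) to 16.89 (edgeR). In edgeR its size depends on the prior count, which was not varied. With the replicate block the log2 fold change of Retnla was 16.77 (edgeR, adjusted p = 1.558e-11) and 12.95 (limma, adjusted p = 1.37e-06), and the block changed no other call that the text gives. The difference in CPM was 551 with TMM-scaled values, 511.7 to 577 with single libraries left out, and 577 without both libraries numbered 4 (exact permutation p = 0.1, the smallest possible), an alternative chosen after seeing the data. The number of called neighbours, 1 of 3, was 0 of 3 without both libraries numbered 4 and with glmTreat against 1.5-fold. It was 1 to 2 with single libraries left out (2 without untreated replicate 4). Within 1000 kb it was 3 of 5 tested, with 0 higher and 3 lower. Of all tested loci 51.8% were called, 26.2% of them all being lower. For the other named loci, 200 comparisons with an alternative gave the same call, 22 lost one, 2 gained one and 0 changed direction. Depth limits Retnlb and Retnlg, with at most 3 reads per group, to a statement about detection.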
